A study of Oryza sativa Indica Group with 12 samples.

Results

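This report compares rice anthers that held trinucleate pollen (TPA) with anthers that held single-celled pollen (SCP). These were 6 of the 12 arrays of the series, 3 arrays of each stage, picked by the stage in their titles. All came from wild type field-grown plants of the indica cultivar IR64, with no mutation, transgene or treatment in either group. SCP anthers were 900 to 950 µm long and TPA anthers 2000 to 2500 µm long. Each array held RNA of whole anthers bulked from several plants, so that pollen, tapetum, wall layers and connective were measured together. The other 6 arrays held premeiotic (PMA) and meiotic (MA) anthers, and serve here only to estimate the spread and to give earlier levels of the same genes. Of 57381 probe sets on the Affymetrix rice array, 57258 interrogate rice transcripts and were compared.

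After meiosis each haploid microspore is released and builds a wall of sporopollenin over an inner layer of cellulose and pectin. The tapetum, the innermost anther layer, supplies wall precursors and lipids to the microspore and then dies. An uneven mitosis gives a large vegetative cell, which later grows the pollen tube, and a small generative cell, whose division makes the sperm cells. Tip growth of the tube is known to need calcium signals, a dynamic actin network, delivery of wall material and a ready supply of sugar.

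Levels are given as signal, the linear GC-RMA intensity of a probe set, and a signal of 10 or less was taken as background. All levels are relative to the other transcripts on the same array, and in whole anthers fewer cells of a type and less RNA per cell cannot be told apart. The TPA arrays stood apart in the middle of their signal range. Their upper quartile lay between 64.2 and 72.7, against 99.1 to 106 in SCP. The 95th percentile was close, at 1521 to 1536 against 1508 to 1542, as was the share of probe sets over 10 (40.3% to 40.4% against 40.7% to 41.1%). Of 18 probe sets for spiked hybridization controls 14 had a higher mean in TPA. The probe sets of the cre control, the brightest, went the other way, the highest of them from 21120 in SCP to 18726 in TPA. Bringing all arrays to a common median of the probe sets over 10 on all 12 arrays moved TPA up against SCP by 0.51 on the log2 scale. Bringing them to a common mean of the hybridization controls moved it by -0.45, in the opposite direction. The median log2 fold change of the 26511 probe sets over 10 in either stage was -0.48 as deposited, 0.03 after the first and -0.93 after the second of these scalings. Over all rice probe sets, most of them at background, it was 0.04, 0.54 and -0.41. The common median thus also lifts background signals of TPA against SCP. The replicates differed unequally. SCP replicates 1 and 2 had a median absolute difference of 0.094 on the log2 scale, SCP replicate 3 differed from them by 0.23, and the TPA arrays differed from each other by 0.27 to 0.41.

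A probe set was called where its stage means differed at least 2-fold and limma's moderated test, adjusted by Benjamini-Hochberg, gave a p of at most 0.005. By this rule 4701 probe sets (8.21% of those tested) were higher in TPA and 8549 (14.9%) were lower. Without SCP replicate 3 the counts were 4403 and 8192. All called probe sets had arrays that did not overlap between the stages, but so did 79.7% of all rice probe sets, 78.0% of those with a mean over 10 in either stage and 77.3% of genes taken at 1 probe set each, so that separation alone says little here. Of the higher probe sets, 823 rose by at least 64-fold, and 1501 were at or under 10 on every SCP array. For 1167 of those the PMA and MA arrays were also all at or under 10. Of the lower probe sets, 403 fell by at least 64-fold and 1639 were at or under 10 on every TPA array. The split between the directions followed the scaling. Calls that were lower made up 64.5% as deposited, 56.2% after quantile normalization, 51.1% and 47.2% after the common medians over each array's own and over shared probe sets, and 75.7% after scaling by the hybridization controls. Under all 4 of these scalings 3850 of the higher and 6002 of the lower probe sets kept their call. No called probe set was called in the opposite direction. The common medians and the hybridization controls moved TPA against SCP by 0.41, 0.51 and -0.45 on the log2 scale for every probe set. These shifts are smaller than the 2-fold limit, so no call could turn under them. Only quantile normalization could have turned one.

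**Figure D1:**
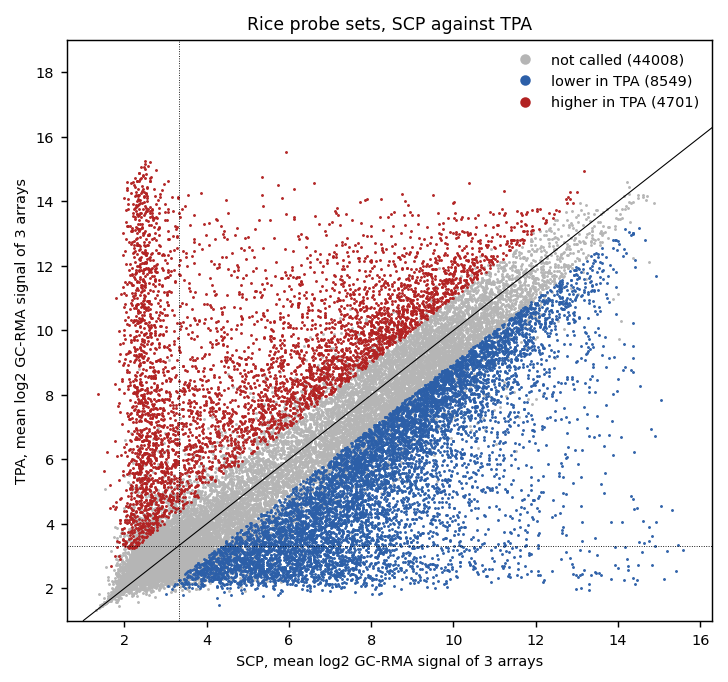
Mean log2 GC-RMA signal of the 3 SCP arrays (x axis) against that of the 3 TPA arrays (y axis) for 57258 rice probe sets, with calls in colour, the diagonal as a solid line and a signal of 10 as dotted lines. The 4701 higher probe sets include a vertical band of 1501 that were at background in SCP, and the 8549 lower ones spread more widely along the SCP axis.

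Genes were described by 1 probe set each, the brightest of those paired with that gene alone. Among the 17905 genes so measured, 14% were higher and 30.7% were lower in TPA, and the median log2 fold change was -0.31. These shares are the background for every count of a gene list below that is given as deposited. A count under the scalings means the 4 scalings named above. Counts by other settings have other backgrounds. Over all rice probe sets, 7380 were higher and 6595 lower after the common median over shared probe sets. Scaling by the hybridization controls gave 3871 and 12079, and an equal-variance t-test on the deposited signals gave 3023 and 3946. A change in a list count between settings is to be read beside these. The lists hold 1245 genes in all, of which 166 were higher and 418 lower. Under all 4 scalings 147 of the higher and 289 of the lower list genes kept their call.

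Calcium-dependent protein kinases couple a calcium-binding domain to a kinase in 1 protein. Of 20 measured, 5 were higher, 8 were lower and 7 were not called, and the list's median log2 fold change was -0.79. CPK2 had signals of 5.48, 5.52 and 5.55 in SCP and 17216, 16970 and 19730 in TPA, at least 1793-fold higher (adjusted p = 2.88e-14). CPK22 went from 4.86, 4.88 and 4.91 to 13418, 14437 and 15859, at least 1454-fold higher. These kinases were at background on all SCP arrays and bright on all TPA arrays, and CPK2 was also at background in PMA and MA (5.56 and 5.81), while the mean of CPK22 in MA was 72.7. Folds are ratios of geometric means, and a fold written as "at least" was taken with signals under 10 on the dim arrays set to 10. The p-values of such genes used the signals as they are, and signals at background can hardly vary. CPK2 had a log2 SD of 0.008 in SCP and 0.12 in TPA. The size of these p-values, here and below, is thus no measure of the spread between TPA replicates. CPK21 differed in kind, since it was above background on the SCP arrays (111, 114 and 52.4) and rose 55.4-fold to 3597, 4690 and 6689. The lower members fell by smaller steps from moderate levels. CPK24 fell from 913, 921 and 811 to 145, 53.2 and 135, a log2 change of -3.12 ± 0.33 (SE), and CPK13 from 5166, 5049 and 5998 to 1277, 788 and 1971, a log2 change of -2.10 ± 0.28. CPK3 had signals of 3811, 3715 and 3269 and 655, 418 and 2176 and was not called (adjusted p = 0.00598), but was called without TPA replicate 3, at a log2 change of -2.78. All 5 higher calls held under every scaling, and 3 of the 8 lower ones did not.

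Calmodulin-like proteins (CML) and calcineurin B-like proteins (CBL) sense calcium, and CBL-interacting kinases (CIPK) act on the signal of the latter. In this list of 58 genes 17 were higher and 11 lower, with a median log2 fold change of 0.11. The balance turned with the scaling, with 26 higher and 6 lower after the common median over shared probe sets and 14 higher and 17 lower after scaling by the hybridization controls. CML28 was measured at 5.13, 5.12 and 5.14 in SCP and 6480, 6495 and 6265 in TPA, at least 641-fold higher (adjusted p = 4.97e-18). CIPK30 had 4.02, 4.01 and 4.02 and 4875, 5367 and 6663, and CIPK20 had 5.09, 5.07 and 5.09 and 4950, 4456 and 4962, at least 559-fold and 478-fold higher. None of these was over 10 on any SCP array, and the TPA replicates lay close together. CIPK5 was bright in TPA (12894, 14535 and 17257) from 24.1, 29.9 and 99.7 in SCP, where replicate 3 was the highest. The sensor CBL4 rose from 11.2, 9.14 and 6.96 to 213, 419.8 and 1089. CIPK6 fell from 1368, 1387 and 1678 to 273, 246 and 270.1, and CML14 from 392, 389 and 371 to background on all TPA arrays (7.26, 7.24 and 7.25), at least 38.4-fold lower. CAM1, a calmodulin, was 2.03-fold higher as deposited, a call that ended after quantile normalization and after scaling by the hybridization controls, and without SCP replicate 1, TPA replicate 1 or TPA replicate 2 (log2 change 0.95 to 0.97).

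The actin network carries vesicles to the tube tip, and actin-depolymerizing factors (ADF) cut and recycle its filaments. Among 33 genes of actin, actin-related proteins (ARP), ADF, villins (VLN) and formins (FH), 9 were higher and 14 were lower. ADF9 was at 4.96, 4.999 and 4.99 in SCP and 21353, 19431 and 23541 in TPA, at least 2138-fold higher (adjusted p = 2.60e-10). ADF1 went from 4.97, 5.35 and 4.90 to 13313, 14178 and 14644 and ADF6 from 4.71, 4.85 and 4.75 to 11805, 10351 and 11458, at least 1403-fold and 1119-fold higher. All 3 factors were at background on each SCP array, and the lowest TPA signal among them was that of ADF6 on replicate 2. VLN4, of a family that bundles and caps filaments, rose 80.2-fold from 186, 170.4 and 73.4 to 11021, 10082 and 10777, and VLN2 rose 5.26-fold from 2214, 2332 and 2778 to 12553, 12826 and 12925. ACT1 itself rose 3.45-fold, from 9288, 9279 and 9003 to 31292, 32300 and 31636, on a probe set that can bind related transcripts. The formins, which nucleate actin filaments, went both ways. FH11 rose from 10.2, 11.1 and 7.94 to 132, 263 and 568 and FH6 9.46-fold, while FH13 fell from 572, 579.8 and 388 to 13.3, 7.99 and 8.01 and FH10 from 160.2, 167 and 866 to 6.82, 6.97 and 7.20. FH10 was unevenly measured in SCP, where replicate 3 was the highest by far. Of the actin-related proteins, ARP3 of the branching complex fell 6.78-fold and ARP4, a chromatin subunit, 4.83-fold. All 9 higher calls held under the 4 scalings and 7 of the 14 lower ones did, ACT7 (log2 change -1.06 ± 0.11) being among those lost, as it was without TPA replicate 2 (-0.96).

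Of 11 tubulins 3 were higher and 5 lower, or 3 lower without SCP replicate 1 or 2. TUB8, a beta-tubulin, had 26.3, 33.1 and 21.4 in SCP and 7955, 9318 and 10739 in TPA, 349-fold higher (adjusted p = 8.66e-10). In the other direction TUB2 fell from 1878, 1917 and 1784 to 170.3, 89.8 and 18.8, with TPA arrays that differed widely, and gamma-tubulin TUBG2 fell from 495, 447 and 506 to 109, 74.7 and 83.7. Kinesins, motors that walk on microtubules, were more often lower, with 2 higher and 13 lower of 32 and a median log2 fold change of -1.25. KIN7J rose from 144, 133 and 109 to 1565, 2305 and 2734, and KIN14L from 201, 212 and 176 to 827, 840.2 and 957. The falls included KIN14C (614, 656 and 646 to 70.4, 10.1 and 42.1) and KIN4A (2204, 2116 and 2181 to 179, 88.96 and 188). The 7 Rac/Rop GTPases, molecular switches of polar growth, were all called, 6 of them lower. Rac1 fell from 1220, 1159 and 1778 to 93.3, 36.7 and 71.95 and Rac7 from 518, 454 and 291 to 16.6, 16.7 and 16.8. Rac6 went from 4605, 4617 and 5158 to 10378, 10777 and 9948, 2.16-fold higher, a call that ended under quantile normalization and under scaling by the hybridization controls.

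Expansins loosen cell walls, and the grass beta-expansins include the major group of pollen allergens. Of 29, 6 were higher, 7 were lower and 16 were not called. EXPB10 had 4.15, 4.14 and 4.15 in SCP and 25977, 23984 and 25428 in TPA, at least 2512-fold higher (adjusted p = 3.54e-17). EXPB9 went from 6.50, 5.34 and 5.49 to 18641, 17964 and 20624 and the alpha-expansin EXPA32 from 4.77, 4.76 and 4.82 to 9969, 13080 and 12560, at least 1904-fold and 1179-fold higher. All 6 risers were at background on every SCP array, and all 6 calls held under each scaling. EXPA1 was uneven in TPA, with 72.7, 93.4 and 1042. The falling members were other genes of the same families. EXPA7 fell from 5899, 5558 and 5320 to 563, 164 and 325, EXPA5 from 1605, 1578 and 1731 to 102, 9.31 and 37.8, and EXPB7 from 498, 482 and 546 to 5.18, 7.68 and 6.74, at least 50.8-fold lower.

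Synthases of cellulose (CESA) and of other wall polysaccharides (CSL), counted with endoglucanases (GLU), were lower in 14 and higher in 5 of 41, shares near those of all genes, and lower in 10 to 20 under the scalings. CSLD5, of a family known for tip-growing cells, had 6.14, 6.07 and 8.43 in SCP and 3406, 3533 and 3794 in TPA, at least 357-fold higher (adjusted p = 1.31e-11). CSLC9, of a family linked to the xyloglucan backbone, rose from 462, 515 and 684 to 4494, 4935 and 5840. CESA6 fell from 2740, 2939 and 3726 to 199.6, 66.5 and 53.98, CESA1 from 3439, 3515 and 3430 to 936, 690.4 and 772 and CESA5 from 949, 1012 and 918 to 202, 69.4 and 119.8. These cellulose synthase genes fell between 4.36-fold and 34.7-fold, with no overlap of the stages. The endoglucanase GLU8 went from 554, 558 and 923 to background (4.96, 4.96 and 4.97), at least 65.8-fold lower. Of 10 genes of BURP proteins, pectin methylesterase inhibitors and arabinogalactan proteins, none was higher and 3 were lower by limma's test, 1 of them a call lost under a scaling. At an unadjusted p under 0.05 by limma, 1 of the 10 had a positive difference. The t-test, which called fewer probe sets higher over the whole array, also called none higher.

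Sugar enters pollen through transporters, is cleaved or rebuilt as sucrose, and is stored as starch before the tube grows. Among sugar transporters, 5 of 19 were higher and 3 lower, and 3 were higher without SCP replicate 1 or 2 and 5 lower without TPA replicate 2. SWEET5, of a family that exports sugars from cells, was at 1044, 1006 and 1579 in SCP and 10519, 11048 and 13939 in TPA (9.92-fold), and at background in PMA and MA (3.98 and 4.62). The sucrose carriers moved apart. SUT1 rose from 25.4, 20.8 and 76.5 to 881, 1034 and 277, and SUT5 fell from 1176, 1016 and 246 to 6.87, 5.33 and 6.92, at least 66.5-fold lower. SWEET11 had 18434, 17731 and 14532 in SCP and 3031, 106 and 1904 in TPA, and with this spread it was not called (adjusted p = 0.00713). It was called without TPA replicate 1 or 2, at log2 changes of -5.23 and -2.81. Sucrose synthases, which cleave sucrose reversibly, were lower or not called. SUS3 fell from 1052, 1124 and 4026 to 5.31, 6.92 and 5.20 and SUS1 from 2620, 2362 and 3199 to 99.7, 69.6 and 7.72. SUS2 had 26856, 28390 and 27736 and 5730, 1456 and 10582 and missed the limit (adjusted p = 0.00575), which it passed without TPA replicate 2 or 3, at log2 changes of -1.83 and -3.26. Against these, the neutral invertase NIN3 rose from 615, 572 and 603 to 6517, 6805 and 6425 and the sucrose phosphate synthase SPS3F from 552, 540.1 and 372 to 2614, 2533 and 2837. In all, 4 of 19 genes of sucrose cleavage and synthesis were higher and 3 lower.

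Starch genes were higher in 4 and lower in 4 of 15. DPE2, the disproportionating enzyme that uses maltose from starch breakdown, rose from 497, 529.9 and 341 to 12512, 12629 and 11700 and its plastid relative DPE1 from 120.5, 82.1 and 93.7 to 3629, 3581 and 3579 (adjusted p = 1.98e-07 and 1.02e-09). The branching enzyme SBE1 rose 5.75-fold. The granule-bound starch synthase Wx, measured by a probe set open to cross-hybridization, had 9.57, 9.39 and 19.96 in SCP and 11498, 15190 and 5382 in TPA, and 3 of its 5 other probe sets were called higher too. The alpha-amylase AMY3D fell from 265, 290.4 and 672 to background. Of glycolysis and fermentation genes 8 of 22 were higher and 2 lower, and with 0.78 this list had the highest median log2 fold change of the lists of at least 10 genes. It was above 0 under all 4 scalings, from 0.33 to 1.29. Under the common medians and the hybridization controls this was fixed in advance by a shift shared by all genes. Quantile normalization, which has no such shared shift, gave 0.74. The aldolase FBA2 was at 5.13, 5.05 and 5.08 in SCP and 11808, 11804 and 12985 in TPA, at least 1219-fold higher (adjusted p = 4.17e-16). Hexokinases split, with HXK5 rising from 789.6, 767 and 843 to 10559, 11222 and 8744 and HXK6 falling from 13877, 13647 and 6761 to 132, 101 and 80.8. The glucose phosphate isomerases PGI-B and PGI-A rose 7.35-fold and 3.16-fold, and pyruvate decarboxylase PDC3, which opens ethanol fermentation, rose from 27.4, 26.5 and 12.05 to 1572, 1896 and 1066.

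Potassium and calcium transport sets turgor and the calcium gradient at the tube tip. Of 36 ion channels and exchangers 11 were higher and 6 lower. The potassium transporter HAK26 went from 5.32, 5.36 and 5.40 to 1923, 2823 and 1088 and HAK20 from 5.13, 5.14 and 5.18 to 513, 1024 and 1569, at least 181-fold and 93.7-fold higher. The TPA arrays of both spread more than 2-fold, but their lowest signal was far above SCP. HAK13 of the same family fell from 1074, 1120 and 2125 to 7.63, 7.73 and 7.61, at least 137-fold lower. The calcium pump ACA1 rose from 10.2, 20.8 and 4.63 to 3507, 3875 and 3071, and the proton/cation exchanger CAX3 fell from 11453, 11409 and 11838 to 322, 263 and 532 (adjusted p = 1.26e-07).

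Aquaporins are water channels of the plasma membrane (PIP), the vacuole (TIP) and other membranes (NIP, SIP). Of 25, 8 were higher and 6 lower, and all 14 calls held under the 4 scalings. TIP1;2 rose from 14.2, 9.95 and 15.6 to 7970, 7607 and 5472 (adjusted p = 1.42e-09). SIP2;1 rose from 119, 116 and 490.2 to 1406, 3536 and 4233. NIP4-1 fell from 38378, 39142 and 34373 to background (8.38, 9.77 and 8.47), at least 3724-fold lower. PIP2;6 fell from 11810, 11938 and 12119 to 191, 189 and 34.9 and SIP1;1 from 9694, 11425 and 14153 to 1169, 1038 and 1055. PIP2, TIP1, NIP and SIP genes were each found on both sides.

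Transporters of nutrients and metals gave 13 higher and 14 lower of 67. Of the 13 risers, 6 were yellow stripe-like (YSL) genes, a family that moves metals bound to nicotianamine or phytosiderophores. The number of YSL genes among the 67 was not counted, so no excess of them is read. OsYSL7 had 8.21, 6.52 and 7.22 in SCP and 16615, 20754 and 20266 in TPA, at least 1912-fold higher (adjusted p = 8.00e-10). OsYSL8 had 6.30, 5.92 and 5.88 and 1760, 1918 and 1862, and OsYSL18 6.10, 6.38 and 6.22 and 1450, 1307 and 1240. OsYSL4 reached 6522, 8183 and 1700 from 5.72, 5.81 and 5.83, with TPA replicate 3 the lowest. None of these YSL genes was over 10 on an SCP array. The copper pump HMA5 fell from 6567, 6171 and 8334 to 764, 416 and 647, the metal transporter MTP5 from 2371, 2458 and 1721 to 211, 285 and 207, and the phosphate transporter Pht1;8 from 1513, 1655 and 344 to 26.5, 23.5 and 44.6.

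**Figure D2:**
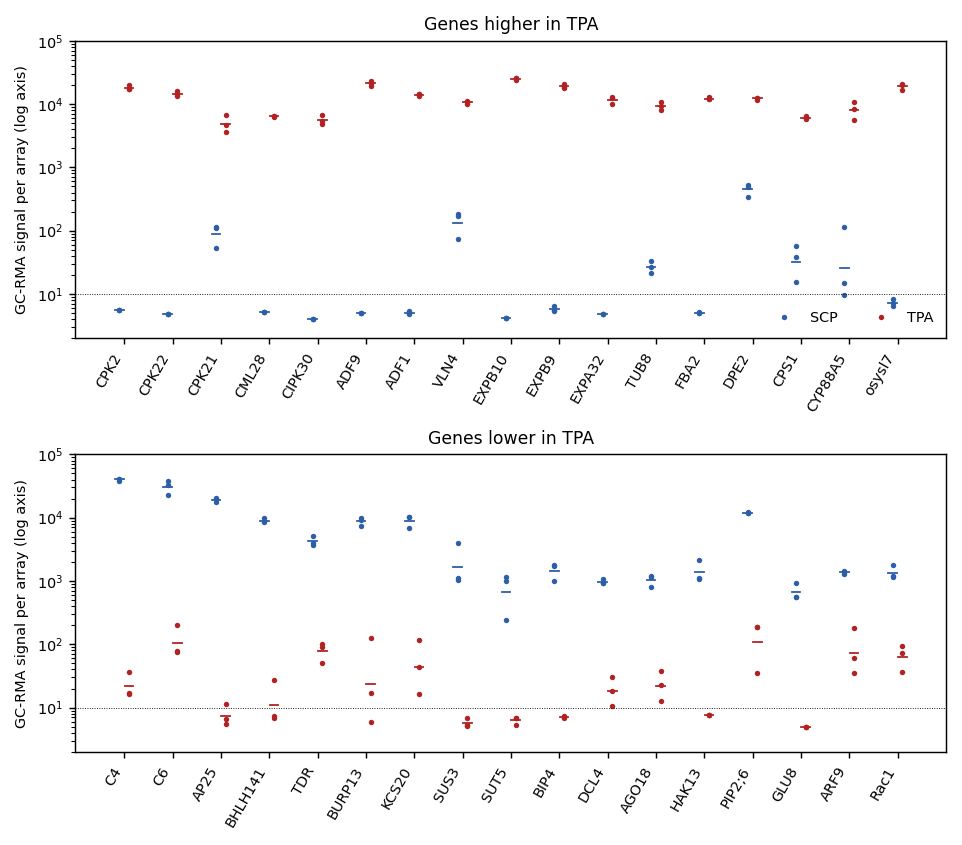
GC-RMA signal of single SCP (blue) and TPA (red) arrays on a log axis for 17 genes higher in TPA (top) and 17 genes lower in TPA (bottom), where short bars are geometric means of 3 arrays and the dotted line marks a signal of 10. In every gene shown the arrays of the stages are apart, and 11 of the 17 rising genes were under the line on all SCP arrays.

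Gibberellin synthesis starts with copalyl diphosphate synthase and passes through kaurene oxidase, kaurenoic acid oxidase and 20-oxidases. Of 7 genes of its synthesis and signalling, 4 were higher and 2 lower, and the 4 higher ones all belong to synthesis. CPS1, the first committed enzyme, rose from 38.4, 57.3 and 15.4 to 5758, 6539 and 5997 (188-fold, adjusted p = 2.74e-06). The kaurenoic acid oxidase CYP88A5 rose from 9.68, 15.1 and 115 to 8499, 10747 and 5682, with SCP replicate 3 far above the other two. GA20OX3 rose 5.70-fold, with TPA arrays of 2377, 3300 and 782, and its call ended when any 1 array other than TPA replicate 3 was left out (log2 change 2.09 to 2.57). The receptor gene GID1 and the growth repressor SLR1 had log2 changes of -1.19 ± 0.14 and -1.31 ± 0.29, and both calls were lost after the common median scalings, that of SLR1 also after quantile normalization and without any 1 array other than TPA replicate 3 (-1.34 to -0.98).

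Jasmonate, which acts in anther opening and pollen maturation, is sensed by COI receptors and JAZ repressors. Of 39 genes 7 were higher and 9 lower, which became 8 and 7 after both common median scalings. The receptor gene COI2 rose from 959.9, 942 and 779.9 to 6191, 6757 and 7340 (adjusted p = 5.65e-09). JAR1, which joins jasmonate to isoleucine, rose from 933, 903 and 1249 to 2965, 2184 and 3549. The lipoxygenase LOX5 fell from 1776, 1691 and 3154 to 363, 121 and 275 and the repressor JAZ8 from 954, 945 and 2050 to 155, 156 and 228. Among 57 auxin genes 6 were higher and 19 lower. GH3 enzymes, which conjugate auxin to amino acids, made up 4 of the 6 risers, of which GH3-1 lost its call without any 1 of the TPA arrays. GH3-2 went from 9.29, 9.27 and 9.37 to 2879, 2876 and 3032, at least 293-fold higher, and GH3-8 from 2524, 2409 and 2288 to 13331, 12220 and 11384. The auxin response factors ARF9 and ARF3 fell from 1362, 1309 and 1429 to 60.01, 34.8 and 182 and from 1718, 2145 and 2075 to 169, 60.4 and 187. Of the 19 lower auxin genes 12 were response factors. The numbers of GH3 enzymes and response factors among the 57 were not counted, so no excess of either is read.

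The tapetum and the pollen wall had the highest share of falls among the lists of at least 10 genes, with 14 of 15 genes lower and a median log2 fold change of -8.18. Part of this list was discussed in the study from these same arrays, so that its direction is not independent evidence. The summed signal of the 15 genes ran from 170594 to 184612 on the SCP arrays and from 3815 to 7578 on the TPA arrays. The lipid transfer protein genes C4 and C6 fell from 41392, 41559 and 38469 to 16.8, 16.6 and 36.9 and from 37559, 33306 and 23094 to 199, 74.8 and 79.3 (adjusted p = 3.22e-07 and 4.06e-07). No TPA array of either gene came near an SCP array, and C4 had been as bright in MA, where its mean was 41236. The bHLH regulators of tapetum death and wall export fell with them. BHLH141, known as EAT1, went from 8458, 8730 and 9776 to 27.3, 7.30 and 6.76, and TDR went from 3977, 3768 and 5187 to 91.98, 102 and 50.7. BHLH142, known as TIP2, was already lower in SCP (341, 347 and 776) than in MA (5815) and had 25.8, 25.7 and 52.00 in TPA. The aspartic protease AP25, a target of EAT1, fell from 19707, 20565 and 17408 to 11.5, 5.45 and 6.57. The cytochrome P450 gene CYP703A3 fell from 43437, 44551 and 48035 to 10.05, 10.10 and 10.42. The BURP gene BURP13 fell from 9860, 9051 and 7471 to 128, 17.01 and 5.91, where the TPA arrays spanned more than 10-fold. GAMYB fell 2.56-fold and lost its call after both common median scalings. RTS was the exception, rising while the rest of the list fell. Its probe set was at 4.79 and 4.77 in PMA and MA, at 4.72, 4.71 and 4.79 on the SCP arrays and at 4240, 4195 and 587 on the TPA arrays, at least 219-fold higher.

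Single genes of fatty acid elongation and of ABC transport also fell steeply. The fatty acid elongase KCS20 fell from 10101, 10086 and 6791 to 118, 16.6 and 43.8. The ABC transporter ABCG36, annotated as a pleiotropic drug resistance protein, fell from 3860, 3789 and 3011 to 12.4, 31.4 and 22.1. Their lists did not fall as the tapetum list did. Of 9 lipid genes 2 were higher and 4 lower (22.2% and 44.4%), and of 13 ABC transporters 2 were higher and 4 lower (15.4% and 30.8%). Among all genes 14% were higher and 30.7% lower.

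Among chaperones all calls were falls as deposited. Of 28 genes of HSP90, HSP100, BiP and heat stress factors 14 were lower and none was higher, while limma's unadjusted p was under 0.05 for 1 with a positive difference. The list's median log2 fold change was -1.56, and 9 of the 14 calls held under the 4 scalings. Without SCP replicate 1 the number lower was 9, and without TPA replicate 3 it was 12 with 1 higher. The cytosolic HSP90 genes HSP81-2 and HSP81-1 fell from 11903, 12028 and 11037 to 2649, 2617 and 2136 and from 7419, 7666 and 8800 to 2551, 2611 and 2095. Both had been higher still in PMA (21599 and 11068). BIP1, the chaperone of the endoplasmic reticulum, had 6512, 6088 and 5598 and 1626, 2591 and 586, a call that ended without any 1 SCP array or TPA replicate 1 (log2 change -2.30 to -2.11). BIP4 went from 1715, 1776 and 988 to background (6.92, 7.29 and 7.18), at least 144-fold lower. In the same compartment the disulfide isomerase PDIL1-1 fell from 14192, 13113 and 13813 to 1805, 1963 and 2493. Small heat shock proteins were lower in 5 and higher in none of 19, a share lower that is under that of all genes, with 3 at an unadjusted p under 0.05 in the higher direction. Only 3 were lower without SCP replicate 1, SCP replicate 2, TPA replicate 1 or TPA replicate 3, 3 calls held under the 4 scalings, and 1 gene was called higher without SCP replicate 3.

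Ribosomal proteins and translation factors were lower in 17 and higher in none of 28, with 0 at an unadjusted p under 0.05 in the higher direction. Only 7 of the 17 calls held under the 4 scalings. RPS3A fell from 6419, 6430 and 7644 to 1720, 2155 and 1703 and RPL9 from 6093, 6294 and 6277 to 1612, 2072 and 1373, both on probe sets that can bind related transcripts. RPS21 fell 2.54-fold and lost its call after the common median scalings. RPL18 was apart from the rest with a fall from 534, 502 and 759.6 to 20.4, 29.5 and 10.1. Ubiquitin and proteasome genes were lower in 10 and higher in none of 24, of which 5 held under all scalings, and 3 were higher at an unadjusted p under 0.05.

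RNA silencing genes cut or bind small RNAs, and 17 of 26 were lower and none higher, with 1 higher at an unadjusted p under 0.05 and 1 called higher without TPA replicate 3. Their median log2 fold change was -1.84, and it was -1.66 after quantile normalization. The shared shifts of the other scalings alone put it between -2.29 and -1.34. The dicer gene DCL4 fell from 918, 941 and 1067 to 30.6, 10.5 and 18.3 (adjusted p = 5.27e-07). The argonaute AGO18 fell from 1188, 1174 and 795 to 22.99, 12.7 and 38.01, and in MA its mean was 1233. AGO1D and PNH1, also argonautes, fell from 3356, 3114 and 4087 to 380.3, 188 and 231 and from 581, 515 and 464 to 11.9, 11.2 and 6.38. DCL2A, another dicer gene, fell from 8455, 8230 and 6413 to 3033, 2051 and 2796. After the common median scalings 1 gene of each of the silencing, HSP90, small heat shock, ubiquitin and histone lists was called higher. An equal-variance t-test with Benjamini-Hochberg adjustment called none of any of them higher. It was run on the deposited signals, where limma called none higher either, so it does not bear on the calls after scaling. Of 8 splicing factors 6 were lower, SCL7 from 252, 270.1 and 194 to 19.6, 12.1 and 11.96.

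Cell cycle genes were lower in 23 and higher in 4 of 44. CKS1, a small subunit of cyclin-dependent kinases (CDK), fell from 5715, 5717 and 6510 to 564, 625 and 790.3 (adjusted p = 9.89e-08). The CDK inhibitors KRP5 and SMR1 fell from 432, 396 and 307 to 6.66, 14.1 and 11.4 and from 808, 797 and 929.5 to 23.5, 66.8 and 7.84. The risers were the kinase CDKF-4, from 924, 1026 and 874 to 9702, 11599 and 13350, and the cyclins CYCD5-2, CYCA2-1 and CYCL1-1. CYCD5-2 had 185, 197 and 215 in SCP and 1372, 2078 and 2429 in TPA, and CYCA2-1 had 72.5, 53.4 and 71.7 and 379, 379.9 and 343. DNA replication genes were lower in 12 and higher in 2 of 30, which became 7 and 5 after the common median over shared probe sets, and without SCP replicate 3 the number lower was 8. Under the 4 scalings 7 lower calls and 1 higher call held. ORC2, of the origin recognition complex, fell from 257, 234 and 225 to 34.2, 41.7 and 50.7, and MCM2, of the replicative helicase, from 86.9, 76.7 and 41.7 to 12.6, 5.30 and 9.995. MCM2 had already come down before SCP from a mean of 1328 in PMA.

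Meiosis genes did not share a direction, with 6 of 20 higher and 8 lower. SPO11-3, a topoisomerase-like gene placed in this list by its name alone, had 27.00, 27.6 and 19.4 in SCP and 510.2, 578 and 515 in TPA, 21.9-fold higher (adjusted p = 7.51e-08). Its TPA level was also above its means in PMA (104) and MA (107). The crossover helicase MER3 was at 5.63, 5.99 and 6.22 in SCP and 106, 175 and 65.1 in TPA, against means of 26.1 in PMA and 40.9 in MA. TDL1A, a signal of early anther cell fate, rose from 12.3, 10.9 and 11.3 to 102, 48.6 and 50.2, below its 392 in PMA. RPA70a, a single-strand DNA binding subunit, rose from 198, 186 and 157 to 576, 626 and 542. MSH5, a crossover factor, fell from 109, 81.1 and 124 to 8.61, 6.60 and 9.80 and the repair nuclease MRE11 from 295, 333 and 345 to 81.3, 50.2 and 50.5. DMC1, the meiotic recombinase, had 56.7, 58.99 and 74.7 and 20.8, 23.3 and 25.2, and its call was lost after quantile normalization and after the common median over shared probe sets.

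**Figure D3:**
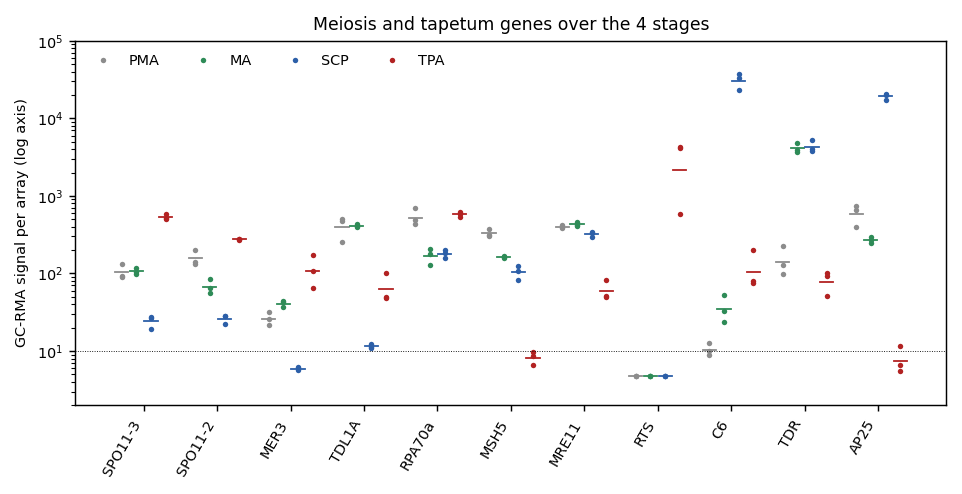
GC-RMA signal of single arrays of PMA, MA, SCP and TPA (log axis) for 7 genes of the meiosis list and 4 of the tapetum list, with geometric means as bars and a signal of 10 as a dotted line. SPO11-3, SPO11-2, MER3 and RTS had their highest signals in TPA, whereas MSH5, MRE11 and AP25 had their lowest there.

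Among transcription factors falls outnumbered rises as deposited, as they did over all genes. Homeobox, SBP, TCP, GRF and NF-Y regulators were lower in 37 and higher in 3 of 88. GRF6, a growth-regulating factor, fell from 409.7, 368 and 519.8 to 14.01, 6.38 and 5.93, Roc5, an epidermal homeodomain gene, from 2570, 2508 and 2827 to 154, 65.2 and 238, and HOX12 from 4203, 3961 and 3895 to 156, 267 and 17.6. The SBP gene SPL18 went against its family, with 33.2, 30.7 and 20.6 in SCP and 2046, 1721 and 3109 in TPA (80.5-fold, adjusted p = 2.47e-07). Zinc finger genes were lower in 30 and higher in 6 of 71, or 18 and 12 after the common median over shared probe sets, and C3H43 fell from 759, 774 and 804 to background (6.97, 6.26 and 6.71). WRKY genes were lower in 5 of 6, bHLH genes in 5 of 14 and MYB genes in 4 of 10, with 0, 1 and 1 higher, and no WRKY gene had an unadjusted p under 0.05 in the higher direction. The bHLH riser was ILI6, from 8.29, 8.35 and 8.29 to 406, 415 and 472, and the MYB riser MYBS1, a regulator of sugar response, from 15.9, 14.3 and 12.98 to 144, 212 and 182. bZIP genes were lower in 8 and higher in 3 of 21, or 5 each after the common median over shared probe sets. Without TPA replicate 2, 5 bZIP genes were higher. BZIP02 rose from 10.96, 12.2 and 12.9 to 1690, 2621 and 3161 and RF2b from 517, 474 and 394 to 5330, 5567 and 5372, and both were higher than in PMA (12.8 and 732) and MA (15.9 and 727). Of 18 floral MADS-box genes 7 were lower and 1 higher, but only 1 lower call, that of OsMADS18, held under the 4 scalings. OsMADS14, the 1 higher, also has a probe set called lower.

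Thioredoxins, glutaredoxins and other redox genes were lower in 21 and higher in 7 of 75, with a share lower under that of all genes, and 13 and 12 after the common median over shared probe sets. Trx20 rose from 8.49, 11.2 and 8.61 to 7920, 10153 and 11450 (adjusted p = 4.90e-11) and the metallothionein MT-2 from 2059, 2001 and 1880 to 14488, 13809 and 9467. The glutathione transferase GSTF1 fell from 186, 178 and 242 to background. Photosynthesis genes, which mark green anther wall tissue, were lower in 4 and higher in none of 15 by limma's test, with 2 higher at an unadjusted p under 0.05. The t-test called 1 lower and none higher, leaving out single arrays gave 2 lower (without SCP replicate 1, SCP replicate 2 or TPA replicate 2) to 6 lower (without TPA replicate 1), and the common median over shared probe sets gave 1 higher. Their summed signal ran from 8842 to 15910 in SCP and from 1293 to 4376 in TPA. Plastocyanin PETE had 4317, 4604 and 3175 in SCP and 1255, 318 and 90.4 in TPA, so that its TPA arrays spanned more than 10-fold, and its call ended without any 1 SCP array or TPA replicate 2 (log2 change -3.75 to -3.49). The part of green tissue and of lost tapetum in the other falls was not tested. Histone genes (0 of 6 called by limma or the t-test, 4 at an unadjusted p under 0.05 by limma, 2 lower after scaling by the hybridization controls and 1 without TPA replicate 3), NAC (1 of 8) and AP2/ERF genes (1 of 12) were largely not called. Outside the lists NifU1, an iron-sulfur scaffold gene, went from 5.67, 5.70 and 5.73 to 15928, 18240 and 26771, and ERG1, a small C2 domain protein gene, fell from 4439, 4114 and 2378 to 5.70, 4.90 and 5.76.

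The study's lists of rice probe sets similar to maize sperm cell and lily generative cell transcripts were also counted. Of 338 probe sets on the maize list 64 were higher and 92 lower in TPA, and of 241 on the lily list 32 were higher and 85 lower. Their median log2 fold changes were -0.31 and -0.73. The shares over all probe sets, 8.21% and 14.9%, include many at background in both stages, so no excess of calls is read from these counts. Overlap of the lists with each other was not examined.

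**Figure D4:**
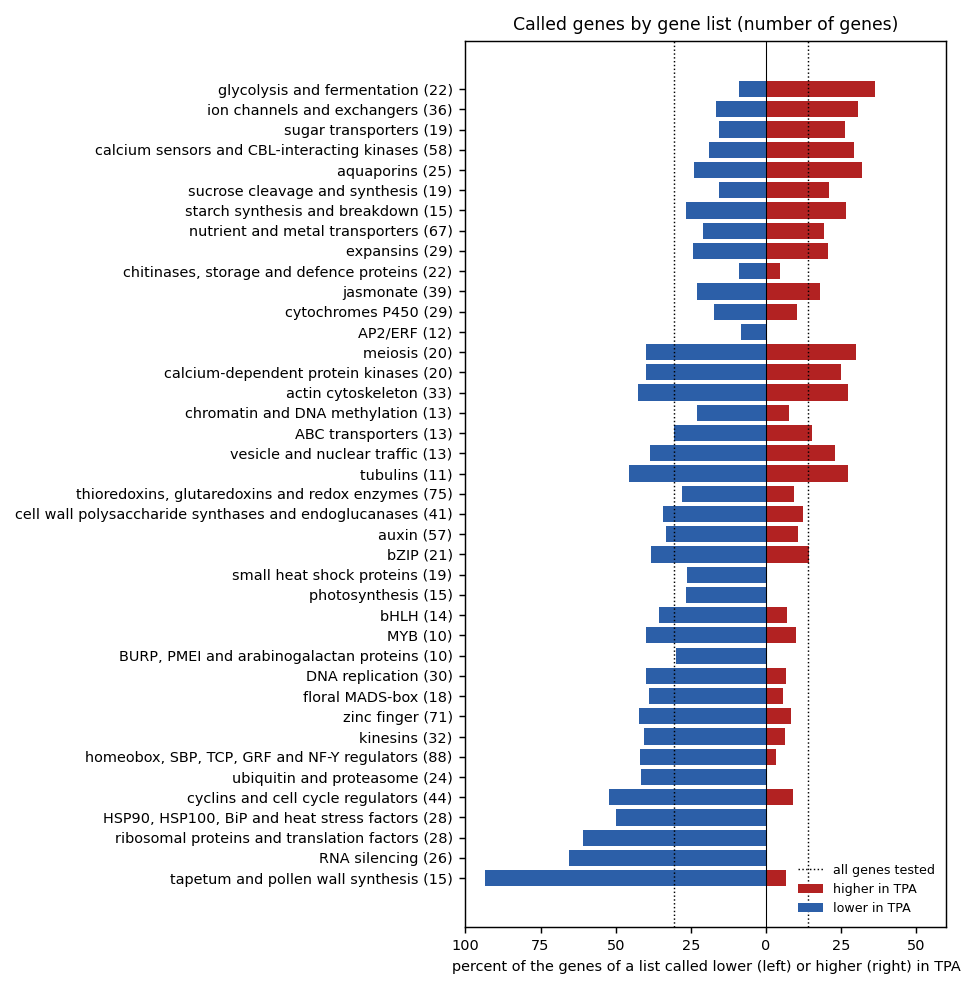
Percent of the genes of each list of at least 10 genes that were called higher (red, right) or lower (blue, left) in TPA than in SCP, with the number of genes in brackets and dotted lines at the shares of all genes tested (14% higher and 30.7% lower). Lists of carbon metabolism, transport and calcium signalling are among those that exceed the right line. Tapetum, RNA silencing, translation, HSP90 and cell cycle lists are among those that exceed the left line. The lists of calcium-dependent protein kinases, actin cytoskeleton, tubulins and meiosis are among those that exceed both.

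Read against the background of 14% higher and 30.7% lower, 9 of the lists with at least 10 genes had more than 25% of members higher. These were glycolysis and fermentation (8 of 22), aquaporins (8 of 25), ion channels and exchangers (11 of 36), meiosis (6 of 20), calcium sensors and CBL-interacting kinases (17 of 58), actin cytoskeleton (9 of 33), tubulins (3 of 11), starch synthesis and breakdown (4 of 15) and sugar transporters (5 of 19). Those with more than 45% of members lower were tapetum and pollen wall synthesis (14 of 15), RNA silencing (17 of 26), ribosomal proteins and translation factors (17 of 28), cyclins and cell cycle regulators (23 of 44), HSP90, HSP100, BiP and heat stress factors (14 of 28) and tubulins (5 of 11). Single arrays decided some of these places, since 3 of 19 sugar transporters were higher and 3 of 11 tubulins lower without SCP replicate 1 or 2, and 9 of 28 genes of the HSP90 list were lower without SCP replicate 1. The medians moved with the scaling too. As deposited, the medians of 11 lists of at least 10 genes were above 0, and 1 of them, glycolysis and fermentation, stayed so after scaling by the hybridization controls. Of the 29 medians below 0, 21 stayed below 0 after the common median over shared probe sets. Both scalings shift every gene alike, so these counts follow from the medians as deposited.

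**Figure D5:**
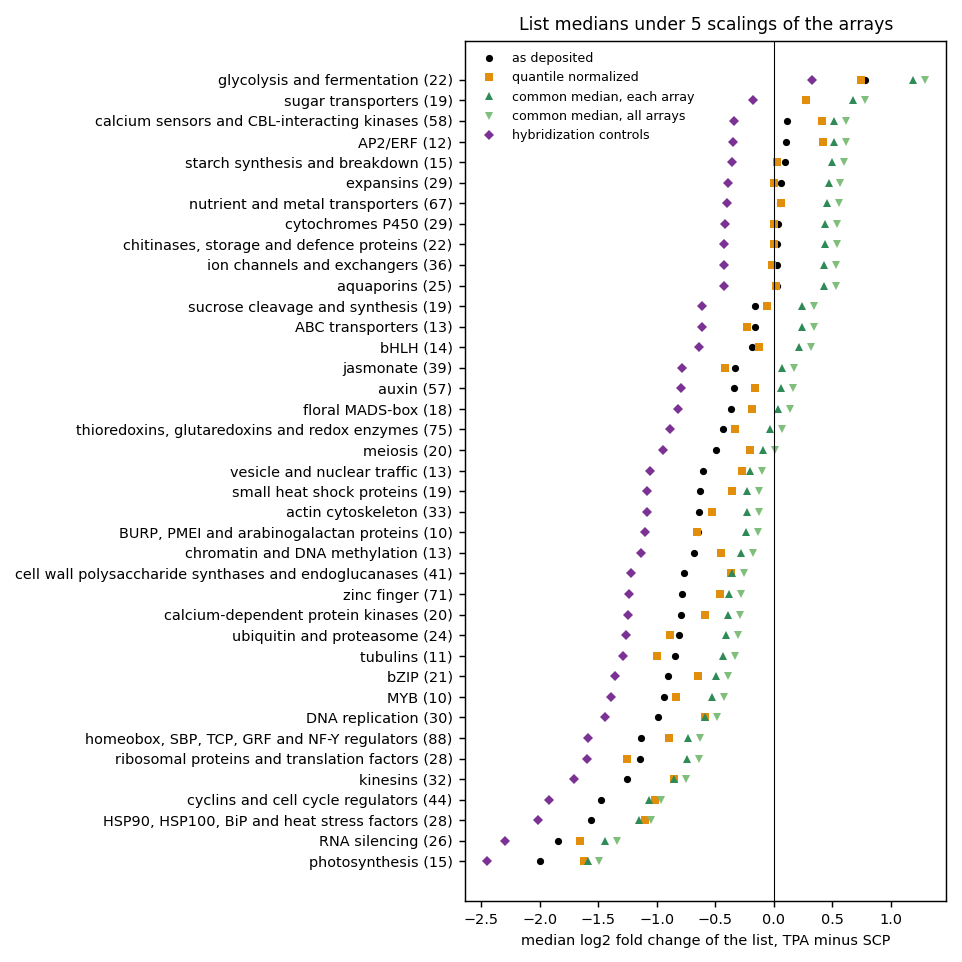
Median log2 fold change of each gene list of at least 10 genes, TPA minus SCP (x axis), as deposited and under 4 other scalings, with the number of genes in brackets. The tapetum list (-8.18) is left out, both common median scalings move every list to the right and the hybridization controls move every list to the left.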

How the data were processed

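RNA of rice anthers was labelled in 1 cycle and hybridized to Affymetrix rice genome arrays, scanned with GCOS, and the authors summarized each probe set by GC-RMA in ArrayAssist. The deposited intensities are on the linear scale and were normalized together with arrays of other tissues by the authors. No genome was used here, so no coordinates or sequences are given.

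The 12 arrays were grouped by stage from their titles, 3 biological replicates each. The arrays of the meiotic stage were run by another person, and p-values measure only the spread between these bulked samples. Array values carry no read depth, and their number limits the precision. The log2 intensities were fitted in R 4.3.3 with limma 3.58.1 as 4 stage means on all 12 arrays, with 8 residual degrees of freedom, and tested as TPA minus SCP, two-sided, with Benjamini-Hochberg adjustment over 57258 probe sets. A call needed an adjusted p of at most 0.005 and a fold of at least 2. The script was tested on simulated data. Other scalings, variance models, filters, a t-test and fits without single arrays were run as alternatives.

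Gene names came from the platform annotation through the RefSeq gene table of the Japonica assembly ASM3414082v1, which paired 22436 probe sets with 1 gene each and 95 with several. The brightest probe set over the 12 arrays stood for a gene. Gene lists were built by symbol or synonym, with wrong matches removed by name. The members, lists and tests were chosen with earlier results of these data known. Genes named were chosen from several groups. These were the 20 largest rises or falls with a symbol or gene-like synonym and the 6 list members with the lowest adjusted p in each direction. The 3 brightest list members not called, members whose call a scaling changed, and genes named in the study were also included. Not all genes of these groups are named, and pla2-II, AS2, KPHMT1 and CPK29 are among those left out. Probe sets of the s_at and x_at kinds can bind related transcripts.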

Additional observations from a re-analysis of the deposited data

How the results depend on the processing

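Counts of calls kept within 1.5 times of 4701 higher and 8549 lower under most alternatives. With only the SCP and TPA arrays in the fit, 5274 probe sets and 257 list genes were lower, and an equal-variance t-test called 3023 probe sets higher, 3946 lower and 208 list genes lower on the same 6 arrays. The first has fewer arrays, and the t-test also has no shared estimate of the spread. In addition, the main fit takes 1 spread per probe set for all 4 stages. The median SD of the probe sets over 10 was 0.31 in TPA and 0.16 in SCP on the log2 scale, so this shared spread can be too small for TPA. Its part in the difference between the counts was not tested. The common median of probe sets over 10 on all arrays gave 7380 higher probe sets. One probe set per gene gave 2589 higher and 5685 lower, and a fold of at least 4 gave 3105 and 5081, which follows from fewer features or a stricter limit. Leaving out 1 SCP or TPA array in turn gave 4307 to 5097 higher and 7475 to 8440 lower probe sets, and 156 to 184 higher and 359 to 404 lower list genes.

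SCP and TPA replicates with the same number did not deviate together (correlations of 0.05, 0.00 and 0.03 over 24869 probe sets). With the replicate block 4534 probe sets were higher and 8034 lower. Of 208 results for genes chosen for the text, 51 calls were lost with the t-test, 37 with only the 6 arrays of both stages, and at most 8 under each of the other alternatives. No gene chosen for the text changed the sign of its difference. For called genes this was fixed in advance under the common median and hybridization control scalings, whose shifts are smaller than a 2-fold change. Under the common median over all arrays more probe sets were higher (7380) than lower (6595).

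Signals at or under 10 give only a bound on a fold, and probe sets with no gene pairing were counted but not named. The scaling of the TPA arrays cannot be told apart from a general change of RNA content between the stages, so small differences shared by many genes have no settled direction.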
